A study of Mus musculus with 6 samples.

Results

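The genes described are 41 secreted products of the mammary, salivary, airway, gastric and pancreatic glands and of the lung alveolus. They were chosen by name from a list, with earlier results of these data known. The expression table named 40 of them through a single probe set each, out of 30176 genes, and *Pnlip* was not analysed here. They were measured in thymic epithelial cells (TECs), sorted as CD45-negative EpCAM+ cells, on 6 arrays that hybridize RNA of the whole mouse transcriptome. By the study's account, the 3 arrays labelled Δ*socs3* came from *Socs3* fl/fl mice with the Actin-creER transgene. The same account has the 3 others, labelled WT, from *Socs3* fl/fl mice without the transgene. All mice had received tamoxifen, and cells were taken 7 days later. Floxed *Socs3* alleles were thus shared by both groups. The transgene is driven by the β-actin promoter, so that deletion was not limited to TECs. The labels give no age or sex and do not say whether a sample held 1 thymus or a pool. With 3 arrays a group, p-values measure the spread between these samples only, part of which may be technical.

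Medullary TECs are known for transcribing genes that belong to other organs. The protein AIRE releases many of these genes in mature cells, and Fezf2 drives another part. Developing T cells that bind the displayed peptides too strongly are deleted or become regulatory T cells. Small subsets of medullary cells also adopt features of other epithelia, such as secretory, microfold or tuft cells. Milk caseins, salivary proteins and pancreatic enzymes are classical examples of such tissue antigens. Each is made at high amounts in its own gland and by few cells in the thymus.

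Caseins carry calcium and phosphate in milk, and their genes lie side by side on chromosome 5. Prolactin induces them in the mammary gland through STAT5, a factor that binds the sequence TTCNNNGAA (N is any base), and SOCS proteins limit such JAK-STAT signals. RefSeq promoters (GRCm38.p6) were therefore searched for this motif, whose reverse complement is the same sequence. The windows of 300 bases ran from 250 before to 50 after each start. It was present in 8.3% of 32851 windows and in all 3 casein genes that had a window. Their sequences are given because *Csn2* and *Csn1s2a* had the largest differences among the milk genes and *Csn1s1* lies beside them. Capitals mark the motif. For *Csn2* (chr5:87699426-87699675, minus strand) and *Csn1s1* (chr5:87665958-87666207, plus strand) the 250 bases before the start are given. For *Csn1s2a* (chr5:87774460-87774488, plus strand) the motif lay past the start, and it is given with 10 bases on each side.
Csn2: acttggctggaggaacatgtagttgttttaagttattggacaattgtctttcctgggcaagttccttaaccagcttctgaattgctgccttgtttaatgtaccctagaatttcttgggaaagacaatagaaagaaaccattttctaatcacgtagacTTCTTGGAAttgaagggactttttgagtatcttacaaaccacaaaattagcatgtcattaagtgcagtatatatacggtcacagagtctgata
Csn1s1: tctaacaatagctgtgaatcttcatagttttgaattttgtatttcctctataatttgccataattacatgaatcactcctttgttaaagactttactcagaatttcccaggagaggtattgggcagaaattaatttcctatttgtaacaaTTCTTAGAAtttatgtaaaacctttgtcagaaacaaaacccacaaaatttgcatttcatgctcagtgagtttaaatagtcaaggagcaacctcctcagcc
Csn1s2a: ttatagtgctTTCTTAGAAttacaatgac

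The motif began 93 bases before the annotated start of *Csn2*, 100 before that of *Csn1s1* and 20 after that of *Csn1s2a*. Of the 30 genes of the list with a window, 6 held the motif, the others being *Pip*, *Bpifb1* and *Scgb3a1*. *Bpifa2*, *Lpo* and *Amy1* had none in their windows. A match of letters is a description and not a binding site.

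Values are log2 signals on arrays brought to a common median, and a difference is the mean of the arrays labelled Δ*socs3* minus that of the arrays labelled WT. Signals of different genes come from different probes and were not ranked against each other. A gene is called dim when its mean over the 6 arrays was not above 10.22, the 95th percentile of 5222 negative control probe sets. By this measure 35 of the 40 measured genes were dim, and *Csn2*, *Prol1*, *Lpo*, *Bpifa1* and *Scgb1a1* were above it. Sizes of differences of dim genes are less certain. One array, labelled Δ*socs3* replicate 2, departed from the others. Spiked poly-A RNAs averaged 6.54 on it and 8.16 to 8.62 on the other 5 arrays, and the SD over genes was 2.33 against 2.61 to 2.67. Calls are therefore also given without it where they changed. *Epcam*, the gene of the surface protein used for the sort, lay between 15.28 and 15.58 on all arrays. *Socs3*, the targeted gene, was at 8.54, 8.14 and 8.38 on arrays labelled Δ*socs3* and at 8.0, 8.26 and 7.88 on arrays labelled WT. Its difference was 0.32 (standard error 0.16, adjusted p = 0.284 from limma, exact two-sided permutation p = 0.2, the smallest possible being 0.1). The signal is dim, and where its probes lie relative to the deleted part is not given in the sources used here. Since it was not lower on arrays labelled Δ*socs3*, groups are named by their labels throughout. The study reports reduced *Socs3* mRNA in Δ*socs3* TECs, which these values do not show. *Aire* also differed in the direction opposite to the one the study describes, so to which genotype a direction belongs cannot be told from these values.

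Arrays labelled Δ*socs3* had higher signals for 4 of the 40 measured secretion genes (*Csn2*, *Clps*, *Lpo* and *Bpifa2*), and *Amy1* was lower, at a limma p adjusted over all genes that fell under 0.05. The other 35 did not pass. Of all genes 1.7% passed, 0.517% as higher and 1.18% as lower. *Csn2*, *Clps* and *Amy1* also differed at least 2-fold, as did 1.28% of all genes. The median difference was 0.31 over the list and -0.05 over all genes, and 34 of the 40 differences were above 0, which was so for 43.5% of all genes. In 17 members every array labelled Δ*socs3* lay above every array labelled WT, a share of 42.5%, against 8.14% over all genes and 8.65% over the 25730 dim ones. The opposite order was found in *Amy1* and *Aqp5* alone, while 26.4% of all genes and 22.8% of the dim ones had it. Without Δ*socs3* replicate 2, 14 members were called higher and *Amy1* lower, against 5.15% and 6.05% of all genes, and the median difference was 0.26. The 10 added genes were *Csn1s1*, *Csn1s2a*, *Csn3*, *Bpifb1*, *Scgb1a1*, *Muc5ac*, *Tff1*, *Tff2*, *Ctrb1* and *Cel*. In that comparison 20 members lay above and 3 below without overlap, against 14.7% and 33.7% of all genes. Without any single one of the other 5 arrays none of the 40 passed, and 0 to 4 genes did so in the whole table. Before adjustment, p was under 0.05 for 17 members that were higher and 2 that were lower with all arrays, which 5.86% and 17.9% of all genes reached.

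**Figure D1:**
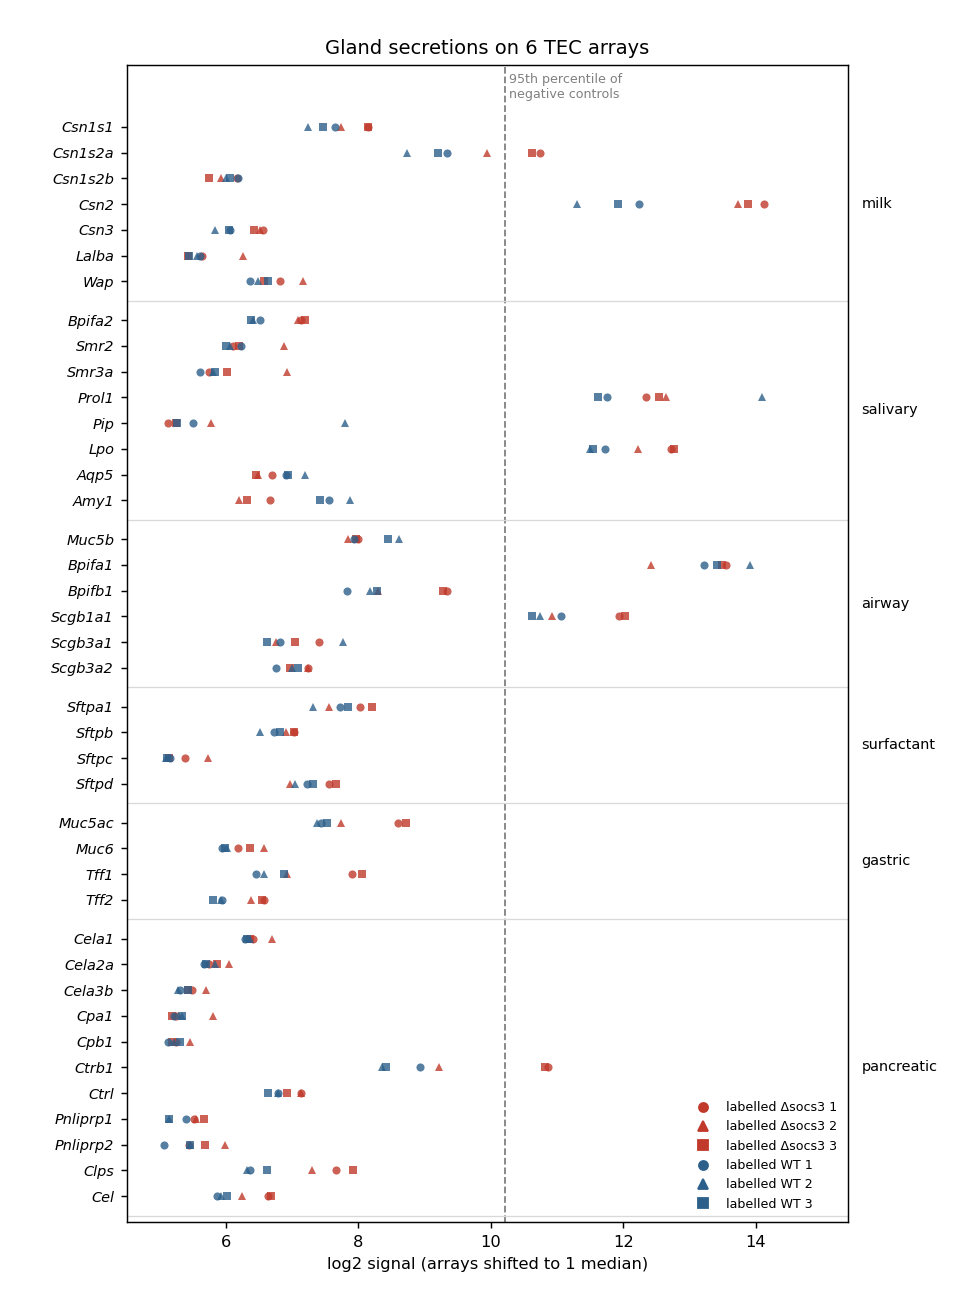
Log2 signal of the 40 measured gland secretions (rows, by gland) on each array, with arrays labelled Δ*socs3* in red, arrays labelled WT in blue and a marker for each replicate number. The dashed line is the 95th percentile of the negative controls at 10.22, which the means of 5 genes exceed. The 2 colours are apart in rows such as *Csn2*, *Lpo* and *Amy1*.

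Milk genes differed most for β-casein. *Csn2* was at 14.12, 13.74 and 13.88 on arrays labelled Δ*socs3* and at 12.24, 11.30 and 11.92 on arrays labelled WT. The groups were apart by more than the spread within either, and the difference was 2.09 (standard error 0.25, adjusted p = 0.0266), which is 4.26-fold. All 6 values are above the negative controls. *Csn1s2a*, which encodes a calcium-sensitive casein, was at 10.74, 9.94 and 10.62 against 9.34, 8.74 and 9.20. Its groups did not overlap, and its difference of 1.34 (standard error 0.26) had an adjusted p of 0.0542, and of 0.0055 without Δ*socs3* replicate 2. *Csn1s1*, for α-S1 casein, was at 8.15, 7.74 and 8.15 against 7.64, 7.24 and 7.46. *Csn3*, for κ-casein, which stabilizes the micelle, was at 6.56, 6.52 and 6.42 against 6.06, 5.84 and 6.04. In both genes the groups did not overlap, and the adjusted p were 0.116 and 0.0801, or 0.0213 and 0.0358 without replicate 2. On the 3 arrays labelled WT, *Csn2*, *Csn1s2a*, *Csn1s1* and *Csn3* all had their lowest value on replicate 2. The remaining milk genes overlapped between the groups. *Csn1s2b* differed by -0.14. *Lalba*, the α-lactalbumin that makes the lactose synthase specific, differed by 0.24, and *Wap*, the whey acidic protein, by 0.36. Both had their highest value on Δ*socs3* replicate 2, and without it their differences were -0.01 and 0.20.

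In RefSeq gene order the stretch from *Csn1s1* to *Prol1* holds 13 protein-coding genes, of which 8 belong to the list and all were measured. *Csn2* was the only gene of the 13 that passed. The 4 genes whose groups did not overlap were *Csn1s1*, *Csn2*, *Csn1s2a* and *Csn3*. *Csn1s2b* lies directly after *Csn1s2a*, and its values of 6.16, 5.92 and 5.74 against 6.18, 6.0 and 6.06 overlapped. The 5 genes in between that are not on the list had differences of -0.06 to 0.56. The clustered genes were therefore not uniform, but differences between neighbours were not tested.

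**Figure D2:**
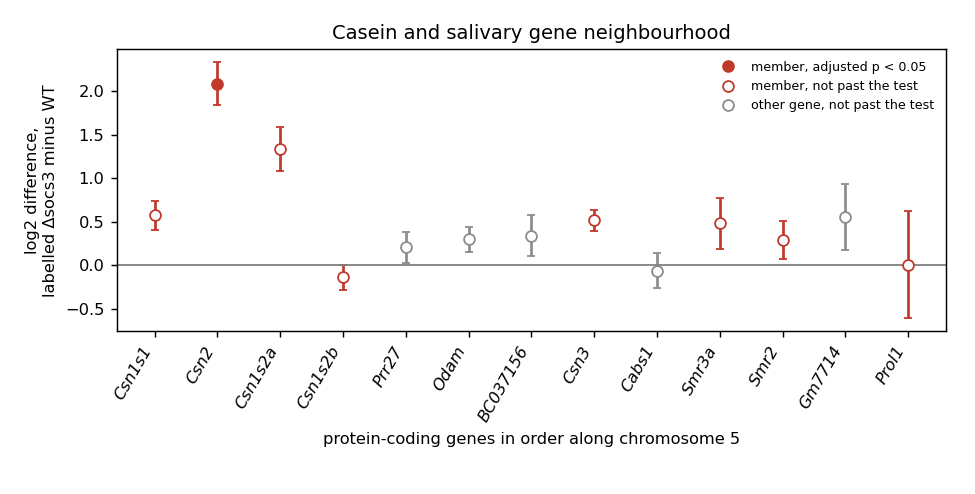
Log2 difference (labelled Δ*socs3* minus labelled WT, bars are standard errors from limma) of 13 protein-coding genes in their order along chromosome 5, with genes of the list in red, others in grey, and a filled symbol for an adjusted p under 0.05. *Csn2* at 2.09 is the only filled symbol, and *Csn1s2b*, behind *Csn1s2a*, lies at -0.14.

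Among 8 salivary genes, *Lpo* and *Bpifa2* were higher on arrays labelled Δ*socs3* and *Amy1* was lower, while 5 were not called. *Lpo*, for lactoperoxidase, an antibacterial enzyme of saliva, milk and airway fluid, was at 12.72, 12.22 and 12.76 against 11.72, 11.50 and 11.54. Its groups did not overlap, and it differed by 0.98 (standard error 0.18, adjusted p = 0.049), or by 1.16 without replicate 2. *Bpifa2*, the parotid secretory protein, was at 7.14, 7.08 and 7.20 against 6.52, 6.40 and 6.38. It was dim but the spread was small, and it differed by 0.70 (standard error 0.12, adjusted p = 0.0428). *Amy1*, the salivary amylase, was at 6.66, 6.2 and 6.32 on arrays labelled Δ*socs3* and at 7.56, 7.88 and 7.42 on arrays labelled WT. It was the single member called lower, at -1.23 (standard error 0.18, adjusted p = 0.0368). *Amy1* has close relatives among the pancreatic amylase genes, and it is also made in liver, so which transcript the dim signal reports is uncertain. *Aqp5*, a water channel of the apical membrane in salivary, lacrimal and airway glands, was at 6.70, 6.48 and 6.46 against 6.90, 7.20 and 6.94. Its groups did not overlap and its difference of -0.46 did not pass (adjusted p = 0.121). *Smr2* and *Smr3a*, submaxillary gland proteins, differed by 0.29 and 0.48. Their highest values, 6.88 and 6.92, were on Δ*socs3* replicate 2, and without it the differences were 0.05 and 0.14.

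*Prol1* and *Pip* set 1 array labelled WT apart. *Prol1*, for a proline-rich protein of lacrimal and salivary glands, was at 12.34, 12.64 and 12.54 on arrays labelled Δ*socs3* and at 11.76, 14.10 and 11.62 on arrays labelled WT. *Pip*, the prolactin-induced protein of tears, saliva and other exocrine fluids, was at 5.12, 5.78 and 5.24 against 5.5, 7.8 and 5.26, and is described because of these values. WT replicate 2 lay 2.42 above the mean of its 2 companions for both genes, and a rise of over 2 was seen in 25 of all 30176 genes. *Prol1* differed by 0.01 (standard error 0.61) with all arrays and by 0.81 (adjusted p = 0.185) without WT replicate 2. For *Pip* the difference moved from -0.80 to 0.00. *Car6*, a carbonic anhydrase secreted in saliva, was also highest on this array, with 10.07 on WT replicate 2 and 7.38 to 8.54 on the other arrays. *Klk1*, *Klk1b22* and *Dcpp3*, also salivary, were instead lowest of all arrays on it, at 12.96, 8.91 and 6.58. Against the mean of WT replicates 1 and 3, the other salivary members lay between -0.14 (*Lpo*) and 0.39 (*Amy1*) on WT replicate 2. Of 10 markers of fat and muscle, *Adipoq*, *Plin1* and *Cidec* of adipocytes were at 8.06, 7.26 and 8.98 on this array and between 5.84 and 7.16 on the others. *Fabp4*, the remaining adipocyte marker, was at 12.28 on this array and at 11.32 and 11.16 on the other arrays labelled WT. It lay 1.03 above their mean, and a rise of over 1 was seen in 106 of all 30176 genes. On Δ*socs3* replicates 1 and 3 it was higher still, at 12.52 and 12.66. The muscle and brown fat markers of that list did not set WT replicate 2 apart, *Ucp1* being at 5.24 and *Acta1* at 7.08. The mean level of the 10 markers ran from 6.91 to 7.53 on arrays labelled WT and from 6.95 to 7.16 on arrays labelled Δ*socs3*. The part of adipose tissue in the values of *Prol1* and *Pip* was not tested.

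**Figure D3:**
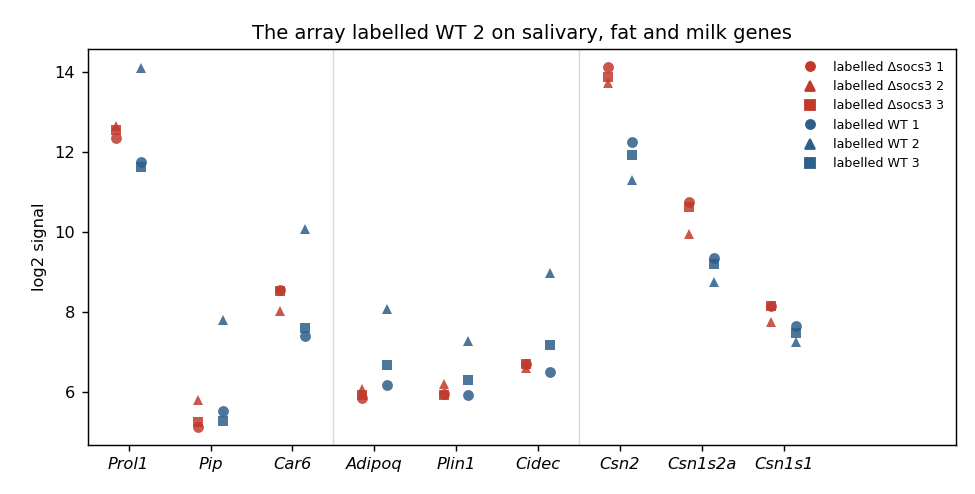
Log2 signal of salivary (*Prol1*, *Pip*, *Car6*), fat (*Adipoq*, *Plin1*, *Cidec*) and milk genes (*Csn2*, *Csn1s2a*, *Csn1s1*) on each array, in red for labelled Δ*socs3* and blue for labelled WT, with a marker for each replicate number. The array labelled WT 2 (blue triangle) is the highest of the 6 for the first 6 genes, and the lowest for the milk genes. *Pip* and *Car6* were picked after their values were seen, and other salivary genes are not shown.

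None of the 6 airway genes passed in limma with all arrays, and 2 were higher before adjustment. *Bpifb1*, of the family of bactericidal lipid-binding proteins, was at 9.34, 8.30 and 9.28 against 7.82, 8.18 and 8.28. The value on Δ*socs3* replicate 2 was just above the arrays labelled WT, and the difference of 0.88 (adjusted p = 0.14) was 1.21 without it (adjusted p = 0.0068). *Scgb1a1*, the secretoglobin of airway club cells, was at 11.94, 10.92 and 12.02 against 11.06, 10.74 and 10.62. Here replicate 2 lay within the range of the arrays labelled WT, and the difference of 0.82 (adjusted p = 0.167) became 1.17 without it (adjusted p = 0.00666). *Bpifa1*, a surfactant-like protein of the upper airways, was at 13.56, 12.42 and 13.50 against 13.22, 13.92 and 13.42. The difference of -0.36 did not pass (adjusted p = 0.567) and was 0.01 without Δ*socs3* replicate 2. The 3 genes *Bpifa2*, *Bpifa1* and *Bpifb1* lie within 5 neighbouring genes on chromosome 2, and their differences had both signs. *Muc5b*, the gel-forming mucin that clears the airways, differed by -0.40, *Scgb3a1* by 0.00 and *Scgb3a2* by 0.20, all with overlapping groups.

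Surfactant genes, which encode the proteins that line the alveoli, had 4 differences between 0.20 and 0.30, and none passed in limma, before or after adjustment. *Sftpb*, for the protein that spreads the surfactant film, was at 7.02, 6.90 and 7.02 against 6.72, 6.52 and 6.82. It was the only gene of this group without overlap (adjusted p = 0.224). *Sftpa1*, a collectin that binds microbes, was at 8.02, 7.56 and 8.2 against 7.72, 7.32 and 7.84, which overlapped on Δ*socs3* replicate 2. *Sftpd* had its lowest value on the same array, while *Sftpc*, made by alveolar type II cells, had its highest there. All 4 were dim.

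Gastric genes were the one group in which every member had non-overlapping arrays, although with all arrays the 4 genes passed in limma only before adjustment. *Muc5ac*, the mucin of the stomach surface and of airway goblet cells, was at 8.60, 7.74 and 8.72 against 7.44, 7.38 and 7.52. *Tff1*, a trefoil peptide secreted with that mucin, was at 7.90, 6.92 and 8.06 against 6.46, 6.58 and 6.88. In both, Δ*socs3* replicate 2 lay closer to the arrays labelled WT than to its companions. Differences were 0.90 (adjusted p = 0.107) and 0.98 (adjusted p = 0.123), or 1.21 (adjusted p = 0.003) and 1.34 (adjusted p = 0.005) without it. *Tff2*, the trefoil peptide of mucous neck cells, was at 6.58, 6.38 and 6.54 against 5.94, 5.92 and 5.80, with a difference of 0.62 (standard error 0.12, adjusted p = 0.0562). *Muc6*, the mucin of gastric glands, was at 6.18, 6.58 and 6.36 against 5.94, 6.02 and 5.98. Its difference of 0.39 was 0.29 without replicate 2 and did not pass in either fit. All 4 genes were dim.

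Of 11 pancreatic enzyme genes, 1 was higher and 10 did not pass, and every difference was above 0. *Clps*, for colipase, the cofactor that anchors pancreatic lipase to fat droplets, was at 7.66, 7.30 and 7.92 against 6.36, 6.32 and 6.62. Its difference was 1.19 (standard error 0.19, adjusted p = 0.0376). *Ctrb1*, for chymotrypsinogen B, was at 10.86, 9.22 and 10.82 against 8.93, 8.36 and 8.41. The groups did not overlap, but the value of Δ*socs3* replicate 2 lay much nearer to the arrays labelled WT, and the difference of 1.74 (standard error 0.44, adjusted p = 0.0864) was 2.28 without it (adjusted p = 0.003). *Cel*, the bile salt-activated lipase, was at 6.64, 6.24 and 6.68 against 5.86, 5.92 and 6.02, with a difference of 0.59 (adjusted p = 0.0911). *Ctrl*, a chymotrypsin-like protease, was at 7.14, 7.14 and 6.92 against 6.78, 6.78 and 6.64. *Pnliprp1*, a lipase-related protein, was at 5.52, 5.54 and 5.66 against 5.40, 5.14 and 5.14. Neither of these passed (adjusted p = 0.178 and 0.17). *Pnliprp2* and the elastase and carboxypeptidase genes *Cela1*, *Cela2a*, *Cela3b*, *Cpa1* and *Cpb1* had differences of 0.08 to 0.37 with overlapping groups. Each of these 6 had its highest value on Δ*socs3* replicate 2, and without it *Cpa1* and *Cpb1* were at -0.09 and -0.01.

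**Figure D4:**
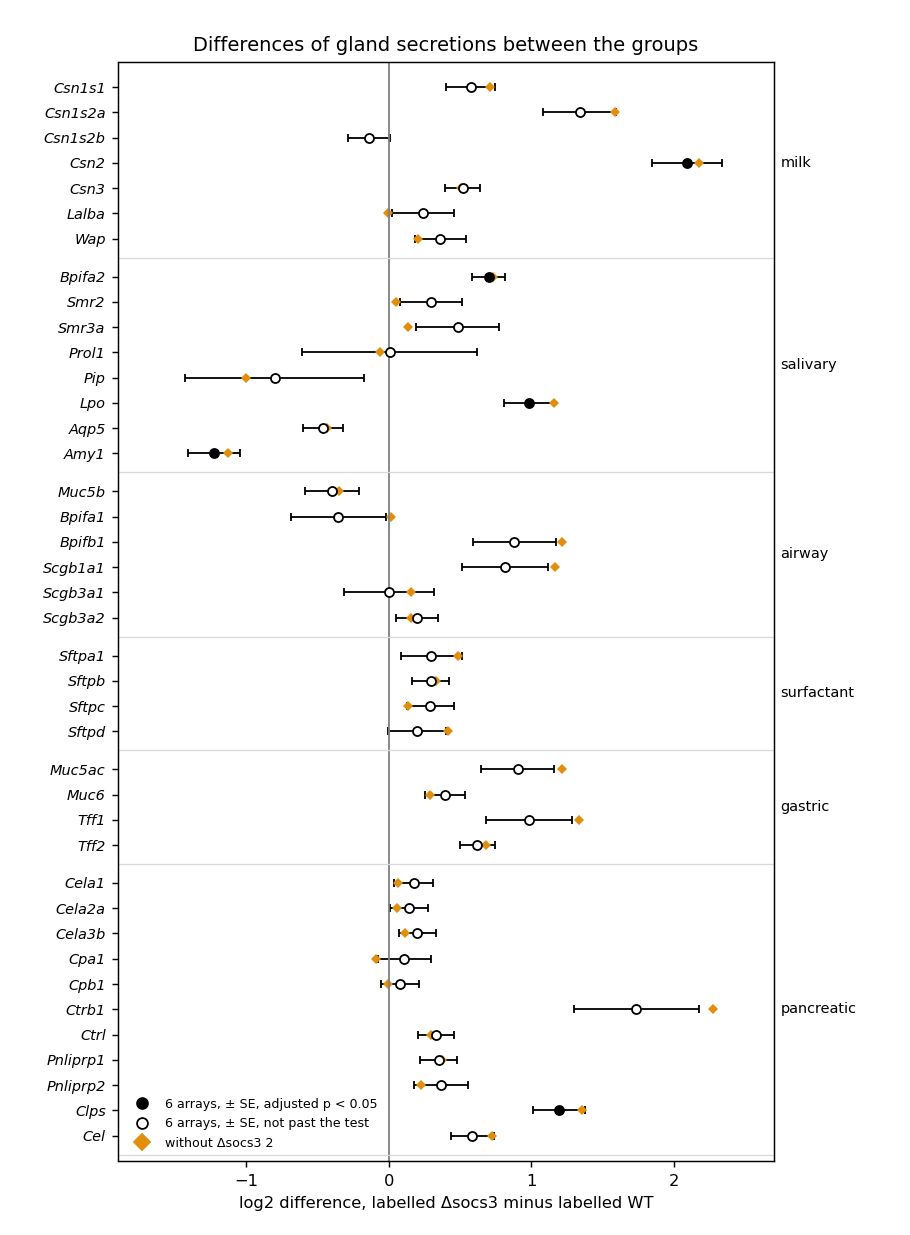
Log2 difference (labelled Δ*socs3* minus labelled WT) of the 40 measured gland secretions with its standard error from limma, where a filled circle has an adjusted p under 0.05, and the difference without Δ*socs3* replicate 2 as an orange diamond. The 5 filled circles are *Csn2*, *Bpifa2*, *Lpo*, *Amy1* and *Clps*. Without the array, *Ctrb1* moves from 1.74 to 2.28 and *Smr3a* from 0.48 to 0.14.

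The departing array did not act in one direction on dim genes, while genes above the negative controls were mostly lowest on it. On Δ*socs3* replicate 2, 20 of the 40 members were below both other arrays of the group and 14 above both, against 51.5% and 37.8% of all genes. Of the 5 members above the negative controls, 4 were lowest on it and 1 was highest, against 89.8% and 3.87% of all genes above that level. Of all dim genes 44.9% were lowest and 43.7% highest on it.

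Other secretions of the same glands, from a list of 64 genes of which 51 were measured, were higher in 5 cases and lower in none, and 46 did not pass. *Spink1*, a trypsin inhibitor of pancreatic juice, was at 10.06, 9.82 and 10.58 against 7.92, 7.98 and 8.15. The gap between the groups was wider than the range of either, and the difference was 2.13 (standard error 0.21, adjusted p = 0.0252). The membrane mucin gene *Muc13* differed by 1.84 (standard error 0.29, adjusted p = 0.0376), *Gp2*, for a glycoprotein of zymogen granules that also marks microfold cells, by 1.00 (standard error 0.16, adjusted p = 0.0388), and *Atp4a*, the gastric proton pump, by 0.82 (standard error 0.13, adjusted p = 0.0386). The fifth, *Reg3g*, encodes an antimicrobial lectin of gut and pancreas. In 29 of the 51 genes (56.9%) the arrays labelled Δ*socs3* lay above all arrays labelled WT and in none below, against 8.14% and 26.4% of all genes, with a median difference of 0.42. The 5 called stand against 0.517% of all genes called higher. Without Δ*socs3* replicate 2, 21 were called higher, against 5.15% of all genes.

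Transcription factors of these glands and the prolactin receptor formed a list of 29, of which 24 were measured. None passed with all arrays. At an unadjusted limma p under 0.05, 2 were above and 3 below, against 5.86% and 17.9% of all genes. Without overlap, 5 lay above and 3 below, against 8.14% and 26.4% of all genes. The 3 below were *Xbp1* at -1.04, *Sox9* at -0.71 and *Foxa2* at -0.17, and the largest above was *Hnf4g* at 0.91. Without Δ*socs3* replicate 2, *Stat5a*, *Foxa1* and *Hnf4g* were called higher and none lower, against 5.15% and 6.05% of all genes. The median difference of the list was 0.06. Of the factors that bind the motif searched, *Stat5a* differed by 0.24 (adjusted p = 0.439, and 0.0392 without the array) and *Stat5b* by -0.15 (adjusted p = 0.718). *Aire* was at 13.52, 12.72 and 13.32 against 11.74, 10.94 and 11.60, without overlap. It differed by 1.76 (standard error 0.28, adjusted p = 0.0386). *Fezf2* differed by 0.49 (standard error 0.14, adjusted p = 0.114), and had an adjusted p of 0.0234 without replicate 2. *Deaf1*, another regulator of peripheral tissue antigens, had the opposite order without overlap, at 8.3, 7.72 and 8.16 against 8.68, 9.02 and 8.6, and its difference of -0.71 did not pass (adjusted p = 0.102). *Prdm1* and *Spib* overlapped between the groups, with differences of 0.01 and 0.27.

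Some markers of cell types differed between the groups as well. Of 12 TEC markers none passed in limma and 8 were lower before adjustment, while 9 were lower on all arrays labelled Δ*socs3* than on all arrays labelled WT. Over all genes, 17.9% were lower before adjustment and 26.4% lay lower without overlap. The TEC list had a median difference of -0.55, and 10 of its genes were above the negative controls. Bright genes were lower in general, with a median of -0.34 over the 4446 genes above that level. The largest falls of the list with all arrays were those of *Psmb11* (-1.52), *Dll4* (-0.95), *Foxn1* (-0.90) and *Ly75* (-0.86), and 1 gene of the 12 had a difference above 0. Without Δ*socs3* replicate 2, *Krt14*, a keratin gene, was the only one called lower (adjusted p = 0.0269). *Foxn1*, the factor that maintains TECs, was at 12 to 12.92 and at 13.06 to 14.12. The mean level of the list ran from 14.08 to 14.61 on arrays labelled Δ*socs3* and from 14.82 to 15.29 on arrays labelled WT. Of 12 myeloid markers *Lyz2*, *Mrc1* and *C1qb* of macrophages were higher, by 1.83, 1.26 and 0.69 (adjusted p = 0.0349, 0.0481 and 0.0494), and none was lower. Of all genes 0.517% were called higher. *Lyz2* alone of the list was above the negative controls, so that *Mrc1* and *C1qb* were dim. *Cd68* differed by -0.30, and *C1qa*, *Itgax* and *Fcgr1* by 0.12, 0.13 and 0.09, and none of these passed. In all, 11 of the 12 differences were above 0. Without Δ*socs3* replicate 2, 6 were higher, against 5.15% of all genes. The mean level of the myeloid list ran from 7.63 to 7.84 and from 7.18 to 7.31, with *Ptprc*, which encodes CD45, dim at 7.62 to 9.12 and 8.06 to 8.60. With all arrays no thymocyte (10 measured), fibroblast and endothelial (11), adipocyte and muscle (10) or parathyroid marker (3) passed. Without Δ*socs3* replicate 2, *Thy1* of thymocytes, *Pdgfrb* of mural cells and fibroblasts and *Myh4* of muscle were called higher (adjusted p = 0.0185, 0.0179 and 0.0317), in the same fit in which 15 gland secretions passed. Before adjustment and with all arrays, 1 thymocyte marker and 1 fibroblast or endothelial marker were higher, and none of the others passed. Mean levels on arrays labelled Δ*socs3* and WT ran from 7.70 to 8.65 and 7.79 to 8.22 for thymocyte markers, from 7.12 to 7.38 and 7.18 to 7.43 for fibroblast and endothelial markers, and from 9.58 to 11.84 and 11.18 to 12.62 for parathyroid markers. In such sorted pools, fewer cells of a type and less RNA per cell cannot be told apart. The part of these shifts in the values of the gland secretions was not tested.

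**Figure D5:**
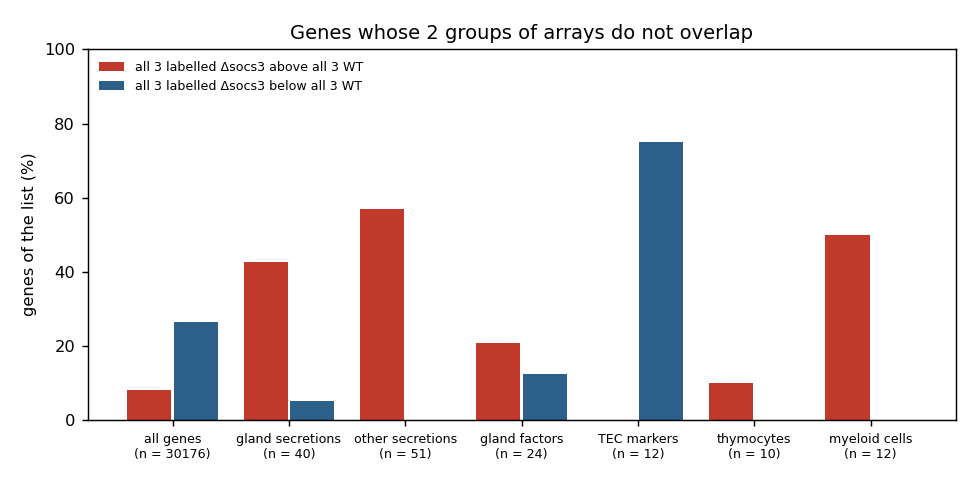
Share of the genes of each list, in percent, whose 3 arrays labelled Δ*socs3* all lay above (red) or all below (blue) the 3 labelled WT, with the number of genes measured under each name. The red share is 42.5% for the gland secretions and 8.14% for all genes.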

How the data were processed

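The authors deposited 1 log2 signal per probe set and array, made with MAS5 per the labels. Their methods add median normalization of each chip and each gene. Array medians differ and genes are not centred, so which steps the table includes is not known. The genome build is not given in the sources used here. Of 65956 transcript clusters, 30638 carried 1 gene symbol in the platform annotation, 2176 several and 33142 none. The probe set with the highest mean was kept for each of 30176 genes, and arrays were shifted to 1 median. The groups were compared by limma (version 3.58.1 under R 4.3.3, functions lmFit and eBayes), with Benjamini-Hochberg adjustment over all genes and a threshold of 0.05. The fit was tested on simulated data. No detection calls were used, and the number of arrays limits the precision. Python 3.11.15 made summaries and figures.

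Values of every array are given for members that passed, whose groups did not overlap, whose mean was above the negative controls, or that had the highest mean of their gland, 23 in all. Others are given by differences and ranges. Up to 4 passing genes of the lists of secretions, factors and regulators are named. *Aire*, *Fezf2*, *Epcam*, *Foxn1* and *Ptprc* are always given. Some genes were added, by array values, differences or name alone, after their values were seen. They were *Csn1s2b*, *Pip*, *Reg3g*, *Car6*, *Klk1*, *Klk1b22*, *Dcpp3*, the other regulators, the named factors of the glands and the other cell type markers named. Members and lists were chosen with earlier results of these data known. Alternatives were other scalings, filters on dim genes, probe set averages, an intensity trend, array weights, the methods' t-test, a 2-fold threshold, a replicate block and leaving out arrays.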

Additional observations from a re-analysis of the deposited data

How the results depend on the processing

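Calls moved with the scaling, the test and single arrays. The counts of genes called are given for all genes, the gland secretions and the other secretions in this order, 512, 5 and 5 in the fit as reported. They were 2198, 11 and 16 after quantile normalization, 4543, 16 and 27 with array weights (whose estimate stopped before it converged), 5816, 17 and 24 with the methods' t-test unadjusted, 4, 0 and 0 with it adjusted, and 7161, 19 and 27 with limma unadjusted. A 2-fold threshold left 3 gland secretions and 3 others. With genes above the negative controls only, 2 of 5 gland secretions passed, *Csn2* and *Lpo*, and 3 of the other secretions, under either filter, beside 534 of 4446 and 714 of 4574 genes, of which 414 and 569 were lower. Leaving out 1 array gave 0 to 3381 genes, 0 to 15 gland secretions and 0 to 21 others, and the highest counts all came without Δ*socs3* replicate 2. Without both replicates 2, chosen after seeing the data, the counts were 2862, 15 and 18. Deviations of same-numbered arrays from their group means had r of 0.07, -0.13 and -0.18. With 3 arrays a group, these values cannot tell whether the numbers pair samples, and the labels do not say. With the replicate block 29 genes, 1 gland secretion and 1 other secretion passed. Of all calls, 30.5% were higher as reported, 50.8% without the shift of medians and 52.1% after quantile normalization, while 39 of 40 members kept their sign under these scalings, all but *Scgb3a1*. The median over all genes was 0.08 without the shift. Fewer members, 33 of 40, kept 1 sign with all arrays and without each in turn. The exceptions were *Lalba*, *Prol1*, *Pip*, *Bpifa1*, *Scgb3a1*, *Cpa1* and *Cpb1*. Without Δ*socs3* replicate 2, 31 differences were above 0, against 34 with all arrays. *Socs3* passed at 0.54 after quantile normalization, 0.46 with array weights and 0.53 without both replicates 2, and without 1 array it ran from 0.22 to 0.42. *Prol1* turned to -0.06 and -0.01 without Δ*socs3* replicate 2 or 3 and to -0.36 and -0.43 without WT replicate 1 or 3, and was 0.81 without WT replicate 2. *Bpifa1* turned to 0.073 with array weights and 0.21 without both replicates 2, and without 1 array it ran from -0.56 to 0.013, the latter without Δ*socs3* replicate 2. The cause was not tested. Members without overlap numbered 19 to 26 over their alternatives, while the share of all genes ran from 33% to 48.4%.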

Other observations

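Parathyroid tissue can lie in or beside the mouse thymus. *Pth*, its hormone gene, was at 11.82, 9.02 and 13 on arrays labelled Δ*socs3* and at 11.76, 12.46 and 14.44 on arrays labelled WT, and *Chga*, a granule protein gene of endocrine cells, at 12.46, 11.16 and 13.38 and at 12.64, 13.12 and 14.24. The groups overlapped for *Pth*, and the order of the arrays within each group was the same for *Pth* and *Chga*. *Casr*, the other parathyroid marker measured, was dim, at 8.90, 8.56 and 9.12 and at 9.15, 9.24 and 9.15. Its groups did not overlap, and on arrays labelled WT it did not follow that order.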
